A study of Saccharomyces cerevisiae with 4 samples.

Results

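The genes described here encode the parts of mitochondrial translation other than the ribosome itself: the aminoacyl-tRNA synthetases that charge mitochondrial tRNAs, the general factors that start, extend and end protein synthesis, and the activators that each serve the mRNA of 1 or a few mitochondrially encoded subunits. They are 38 genes, taken by systematic name from a fixed list, out of 6673 genes in the deposited tables. They fall into 13 synthetases, 10 general factors and 15 mRNA-specific activators. All 38 were found in the files and in the reference annotation, and all 38 had a mean RPKM (reads on a gene, divided by its length and by the reads counted in the library) of at least 1, the minimum for entering the test.

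The study asked how RNA-binding proteins relate to the level and variation of their target mRNAs, and took *PUF3* as an example. RNA-seq was done on 2 replicates of a yeast strain in which *PUF3* is deleted (*PUF3Δ*) and 2 replicates of the wild type (WT), both haploid, both with *his3Δ1*, *leu2Δ0*, *met15Δ0* and *ura3Δ0* in the sample descriptions, and both moved from an overnight culture in glucose medium (YPD) to YPEG, a medium with ethanol and glycerol. The labels name the background BY4742, which carries a deletion of LYS2, while the methods of the study name BY4741, which carries one of MET15 (MET17 in the annotation). LYS2 had 1 and 4 reads in *PUF3Δ*, against 1 and 1 in WT, while MET17 had 1120 and 1196 reads in *PUF3Δ*, against 5041 and 5868 in WT, so LYS2 was near 0 and *met15Δ0* goes against the reads in all 4 libraries. Nothing in the labels says whether the replicates were separate cultures or how many deletion clones were used, so p-values measure the spread between these libraries, which may be technical.

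On ethanol and glycerol a yeast cell has to respire, and respiration needs the few proteins that mitochondrial DNA encodes, among them the core subunits of cytochrome c oxidase (COX1, COX2, COX3), cytochrome b (COB) and subunits of ATP synthase (ATP6, ATP8, OLI1). These proteins are made inside the organelle by a separate translation system that resembles the bacterial one. Almost all of its parts, including every gene described here, are encoded in the nucleus, translated in the cytosol and imported. Puf3p is an RNA-binding protein of the PUF family that is known to bind an element of the form TGTANATA downstream of the stop codon in mRNAs for mitochondrial proteins and to promote their deadenylation and decay.

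The element was far more frequent in these genes than in the genome, a property that the choice of the genes did not use. In the 200 nt after the stop codon, on the coding strand of the R64 genome, TGTANATA was present in 32 of the 38 genes (84.2%), against 14.1% of 6002 nuclear protein-coding genes. On the opposite strand of the same windows it was present in 4 of the 38 (10.5%), against 13.2% of all. All 13 synthetases had it, as did 8 of the 10 general factors and 11 of the 15 activators. A longer form, with a C 2 bases before the element, was present in 21 of the 38 (55.3%), against 4.22% of all genes. The longer form contains the shorter one, so each gene counted for it is also among the 32.

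In the 32 genes there were 38 elements, since MSF1, MSK1, NAM2, MEF1, IFM1 and GUF1 had a pair each. The variable base was A in 30 of them, T in 5 and C in 3, and 34 of the 38 began within 100 nt of the stop codon, with a median of 45 nt. MEF2 and FMT1 among the general factors, and PET122, ATP22, CBS1 and PET54 among the activators, had no such letters in the window. The elements of genes that changed most are shown here, from those that were higher in *PUF3Δ* to those that were lower, so that the sites of both kinds can be compared. Each is written 5′ to 3′ with up to 11 bases on either side, and the capitals mark the element.

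IFM1, nearer element: cacacaaaaacTGTACATAtgtaaaaatac
IFM1, farther element: tatataatctaTGTAAATActgtaaactat
MSS51: atctcaatatcTGTAAATAcaaaaatacta
MEF1, nearer element: caaaacagtctTGTAAATAacaaattccaa
MEF1, farther element: aaagatctttcTGTAAATAcacgaatgaaa
MSK1, nearer element: gccaatgctttTGTAAATAaatcagacata
MSK1, farther element: cagacatatacTGTAAATAattagaatggc
TUF1: aattttatacgTGTAAATAaagtgccataa
DIA4: taagaaaatctTGTAAATAtgtaatcttat
CBS2: agaaatttcaTGTATATAcaatagatatt
AEP3: ggcatttttatTGTACATAtatacttcata

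On R64 the element of TUF1 lies at chrXV:685432-685439 on the plus strand, 88 nt after the stop codon, that of MSS51 at chrXII:550549-550556 on the minus strand, 93 nt after it, and that of DIA4 at chrVIII:129136-129143 on the plus strand, 15 nt after it. The element of CBS2 begins only 10 nt after the stop codon. The DIA4 site and the nearer MEF1 site have the same element with a C 2 bases before it, while DIA4 was lower and MEF1 higher in *PUF3Δ*. The same 8 letters therefore stood in genes that moved in opposite directions.

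**Figure D1:**
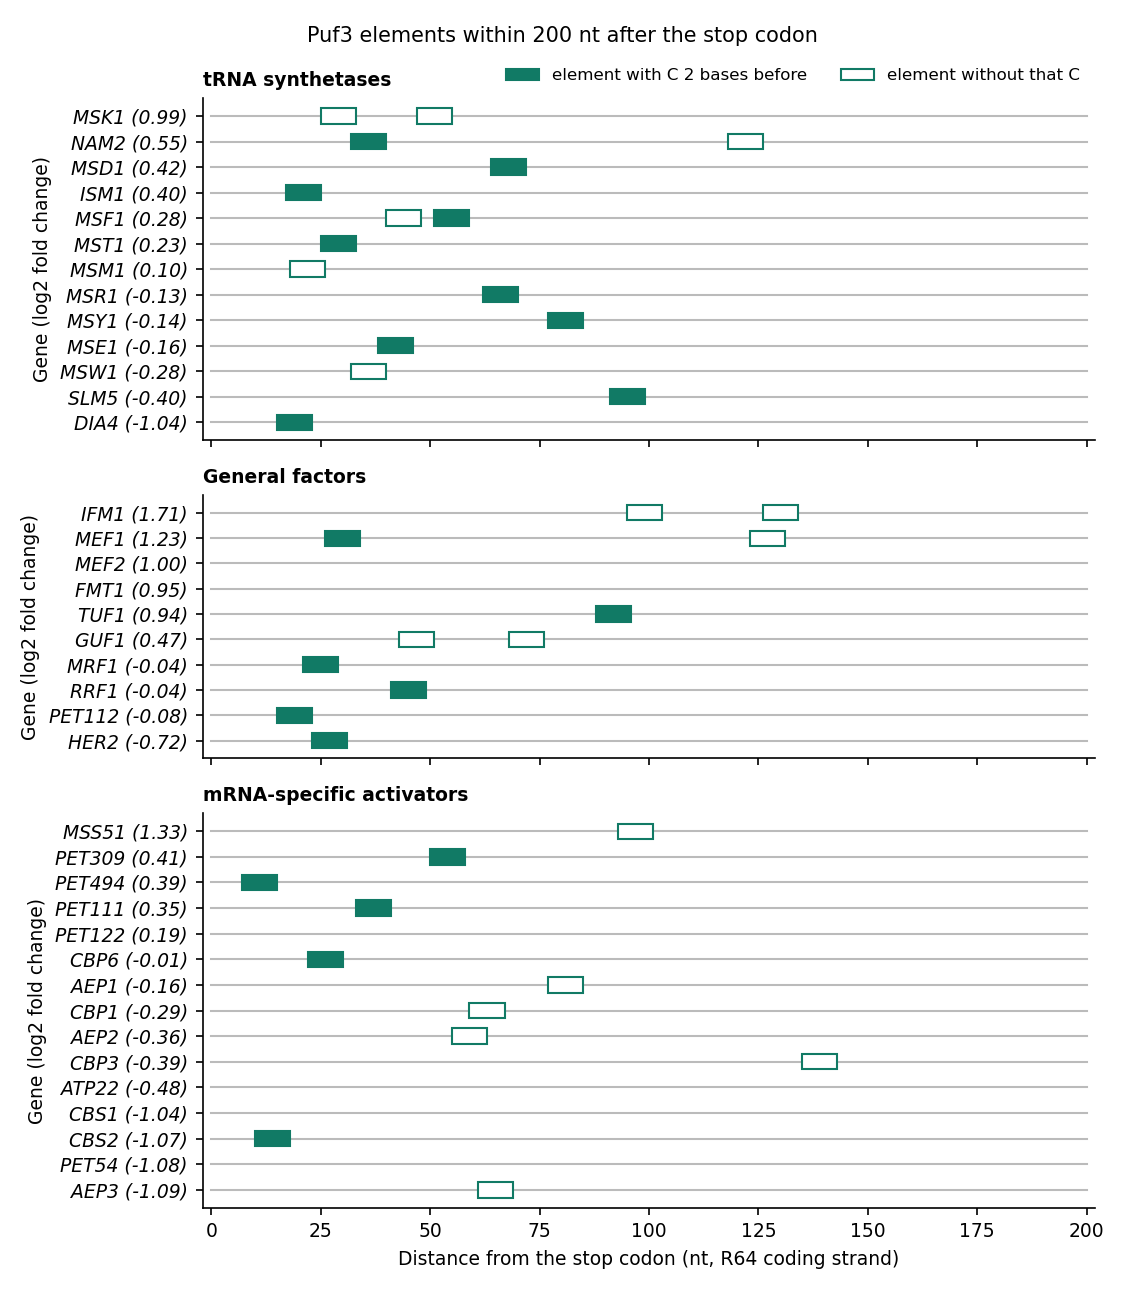
Position of every TGTANATA element in the 200 nt after the stop codon of the 38 genes (x axis, nt from the stop codon on the coding strand of R64; 1 line per gene, with its log2 fold change in brackets). Filled boxes have a C 2 bases before the element (21 boxes) and open boxes do not, and 6 lines are empty.

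The libraries held between 6703910 and 8228693 reads on the listed genes. *PUF3* itself had 2 and 6 reads in *PUF3Δ*, against 569 and 761 in WT, as the labels require. RPKM is a share of each library, so less RNA of 1 gene and more RNA of the rest cannot be told apart. The median log2 fold change (*PUF3Δ* minus WT, on log2(RPKM + 1)) over the 5860 genes tested was -0.39 with the deposited values. Median-of-ratios scaling brought it to -0.01, since it sets the typical gene to no change. For this reason a gene is called here firmly higher or lower only if it passed an adjusted p of 0.05 in limma in the same direction under both scalings. The scaling raised the log2 fold change of each of the 38 genes, so it ended calls of lower genes and none of higher ones.

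Of the 38 genes, 13 were higher in *PUF3Δ* under both scalings, where 18.9% of all genes were, and 5 were lower under both, where 33.2% of all genes were. As deposited alone, 13 were higher (background 18.9%) and 11 lower (background 54.2%), and after median-of-ratios scaling alone 23 were higher (background 33.9%) and 5 lower (background 33.2%). The share of higher genes thus stood above the background, and that of lower genes below it, under either scaling. The median log2 fold change of the 38 genes was -0.02 as deposited, which lies above the -0.39 of all genes, and 0.36 after scaling. No test was made of the list as a whole, which was chosen with earlier results of these data known.

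The values of the 2 strains did not overlap for 16 genes that were higher and 15 that were lower in *PUF3Δ* as deposited, where 24.9% and 62.6% of all genes had no overlap in these directions. Across the 12 alternative settings, which are other scalings, filters, a pseudocount, a length correction, another model, a replicate block and the fits without 1 library, 14 genes kept their call in every one. The 9 higher ones were the synthetase genes MSK1, NAM2 and MSD1, the general factor genes IFM1, MEF1, MEF2, FMT1 and TUF1, and the activator gene MSS51. The 5 lower ones were the synthetase gene DIA4 and the activator genes PET54, CBS1, CBS2 and AEP3. The share of all genes that kept their call in every setting is not given here, so these counts have no background beside them.

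**Figure D2:**
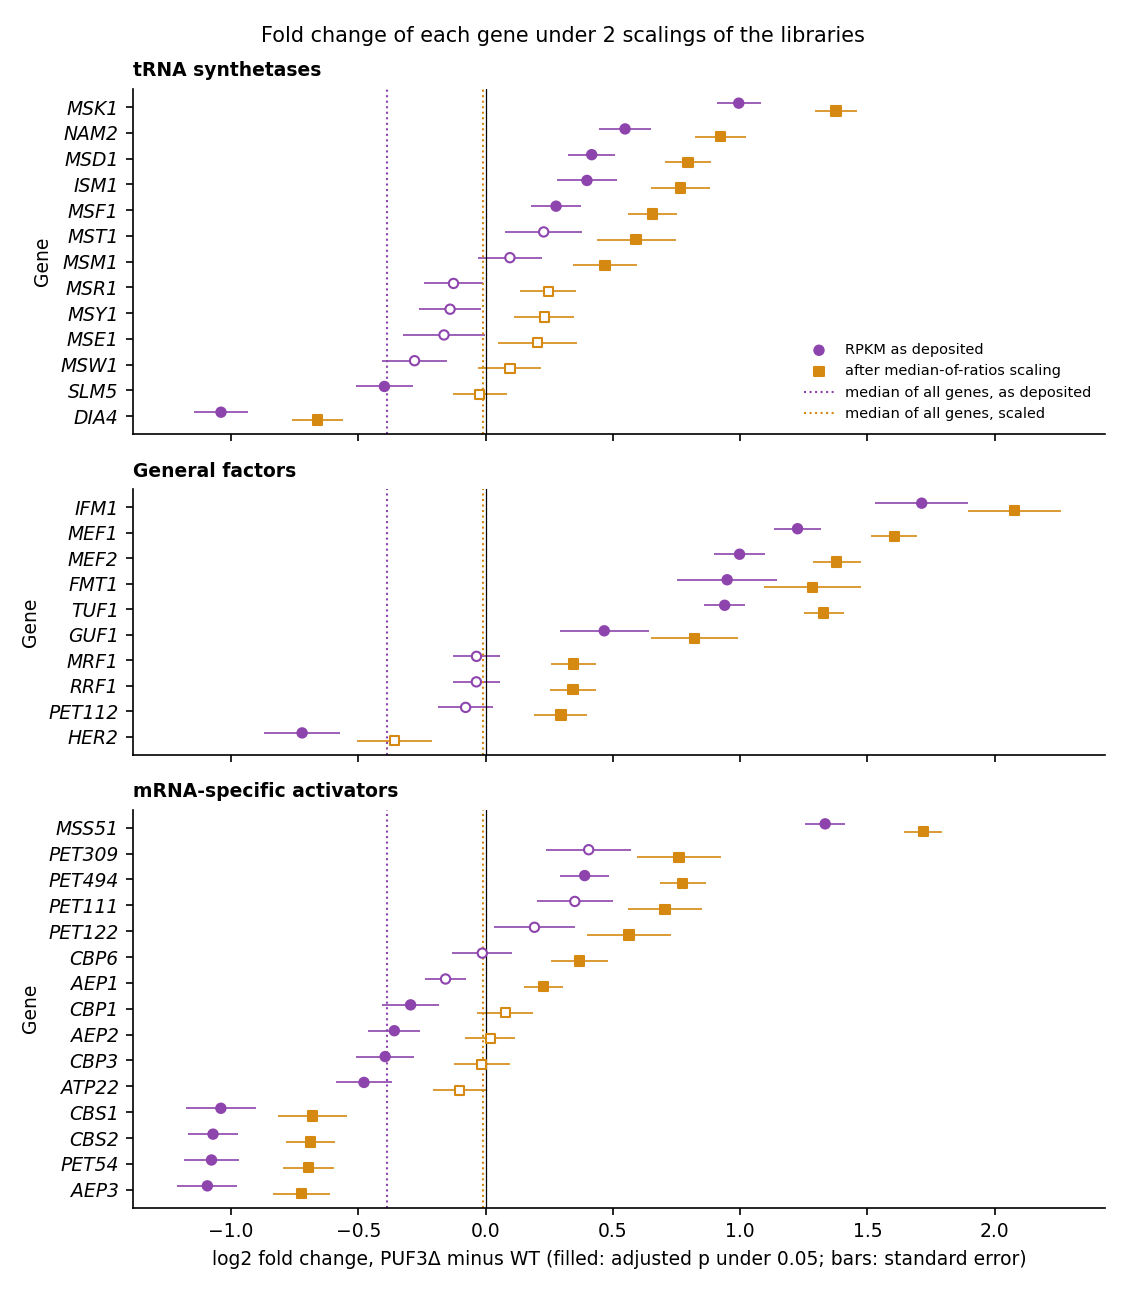
Log2 fold change of each gene, *PUF3Δ* minus WT (x axis), by role, with the deposited RPKM (circles) and with median-of-ratios scaling (squares). Bars are standard errors, filled symbols passed an adjusted p of 0.05 in limma, and dotted lines are the medians of all 5860 genes tested at -0.39 and -0.01.

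Of the 3 roles, the general factors held the largest share of genes that were higher in *PUF3Δ*. Of the 10 general factors, 6 were higher and none lower under both scalings, where 18.9% and 33.2% of all genes were, and their median log2 fold change was 0.70 as deposited. The gain was largest in IFM1, the gene of the mitochondrial initiation factor related to bacterial IF2, and in MEF1, the gene of the elongation factor that moves the ribosome along the mRNA. TUF1, MEF2 and FMT1 followed with changes near a doubling, and GUF1 with a smaller one.

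IFM1 (YOL023W, chromosome XV, 278056 to 280086) had an RPKM of 32.2 and 33.7 in *PUF3Δ*, against 7.61 and 11.4 in WT. The log2 fold change was 1.71 (standard error 0.18, adjusted p = 1.5e-04 in limma), the largest of the 38 genes, and it ranged from 1.45 to 1.98 when a library was left out. Its reads numbered 438 and 556 in *PUF3Δ*, against 114 and 191 in WT, so the WT libraries differed from each other but neither came near the *PUF3Δ* libraries. MEF1 (YLR069C, chromosome XII, 271630 to 273915) had 73.8 and 75.7 RPKM in *PUF3Δ*, against 30.02 and 32.79 in WT, a fold change of 2.38 between the means (log2 fold change 1.23, standard error 0.09, adjusted p = 3.9e-05 in limma).

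MEF2 encodes a second factor of the same family, whose bacterial and mammalian relatives take part in recycling of the ribosome after termination. It had 77.04 and 84.53 RPKM in *PUF3Δ*, against 37.99 and 41.92 in WT (log2 fold change 1.00, standard error 0.10, adjusted p = 1.1e-04 in limma). MEF2 holds no TGTANATA in the window, and whether this bears on its change was not tested. It rose by less than its relative MEF1: the ratio of MEF1 to MEF2 was 0.958 and 0.895 in *PUF3Δ*, against 0.790 and 0.782 in WT. TUF1, the gene of mitochondrial EF-Tu, which brings charged tRNAs to the ribosome, was the most abundant of the 38 genes. It had 871.6 and 902.9 RPKM in *PUF3Δ*, against 484.0 and 441.2 in WT, from 4691 reads or more in each library (log2 fold change 0.94, standard error 0.08, adjusted p = 5.9e-05 in limma).

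FMT1, the gene of the transferase that formylates the initiator methionyl-tRNA, was the least abundant of the 38 genes and has no element either. It had 8.90 and 10.9 RPKM in *PUF3Δ*, against 5.17 and 4.13 in WT, from between 41 and 107 reads in a library (log2 fold change 0.95, standard error 0.20, adjusted p = 0.0037 in limma). GUF1, related to the bacterial elongation factor LepA, had 12.4 and 14.0 RPKM in *PUF3Δ*, against 8.05 and 10.7 in WT (log2 fold change 0.47, standard error 0.17, adjusted p = 0.045 in limma). The GUF1 call was lost without WT replicate 1, without either of the *PUF3Δ* replicates and without the filter on low values.

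The genes of the release factor and of the ribosome recycling factor did not pass the test as deposited. MRF1, the release factor gene, and RRF1, the gene of the ribosome recycling factor, both had a value of -0.04 on the log2 scale (standard errors 0.09 and 0.09), with *PUF3Δ* and WT libraries that overlapped. After median-of-ratios scaling their values were 0.35 (adjusted p = 0.012) and 0.34 (adjusted p = 0.015), so their call depends on the scaling. After the correction for gene length both passed as higher, at 0.37 (adjusted p = 0.0085 in limma) and 0.55 (adjusted p = 0.0017 in limma). In the same libraries IFM1, MEF1, TUF1 and MEF2, whose relatives act in recycling, were higher under both scalings.

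PET112 and HER2 encode subunits of the amidotransferase that turns glutamyl-tRNA into glutaminyl-tRNA, a route that mitochondria use in place of a glutaminyl-tRNA synthetase. PET112 had a value of -0.08 on the log2 scale (standard error 0.11, adjusted p = 0.54 in limma), and HER2 one of -0.72 (standard error 0.15, adjusted p = 0.0039 in limma), which became -0.36 with an adjusted p of 0.070 after median-of-ratios scaling. The ratio of PET112 to HER2 within a library does not depend on the scaling of that library. It was 2.30 and 2.29 in *PUF3Δ*, against 1.25 and 1.62 in WT. PET112 and HER2 stood farther apart in *PUF3Δ*, but this ratio, like those of other partners given here, was chosen after the values were seen. None of these ratios was tested, and none has a background over other pairs of genes. Ratios of PET122 to PET54, MSS51 to PET309 and AEP1 to AEP2 were also computed and had no overlap between the strains.

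**Figure D3:**
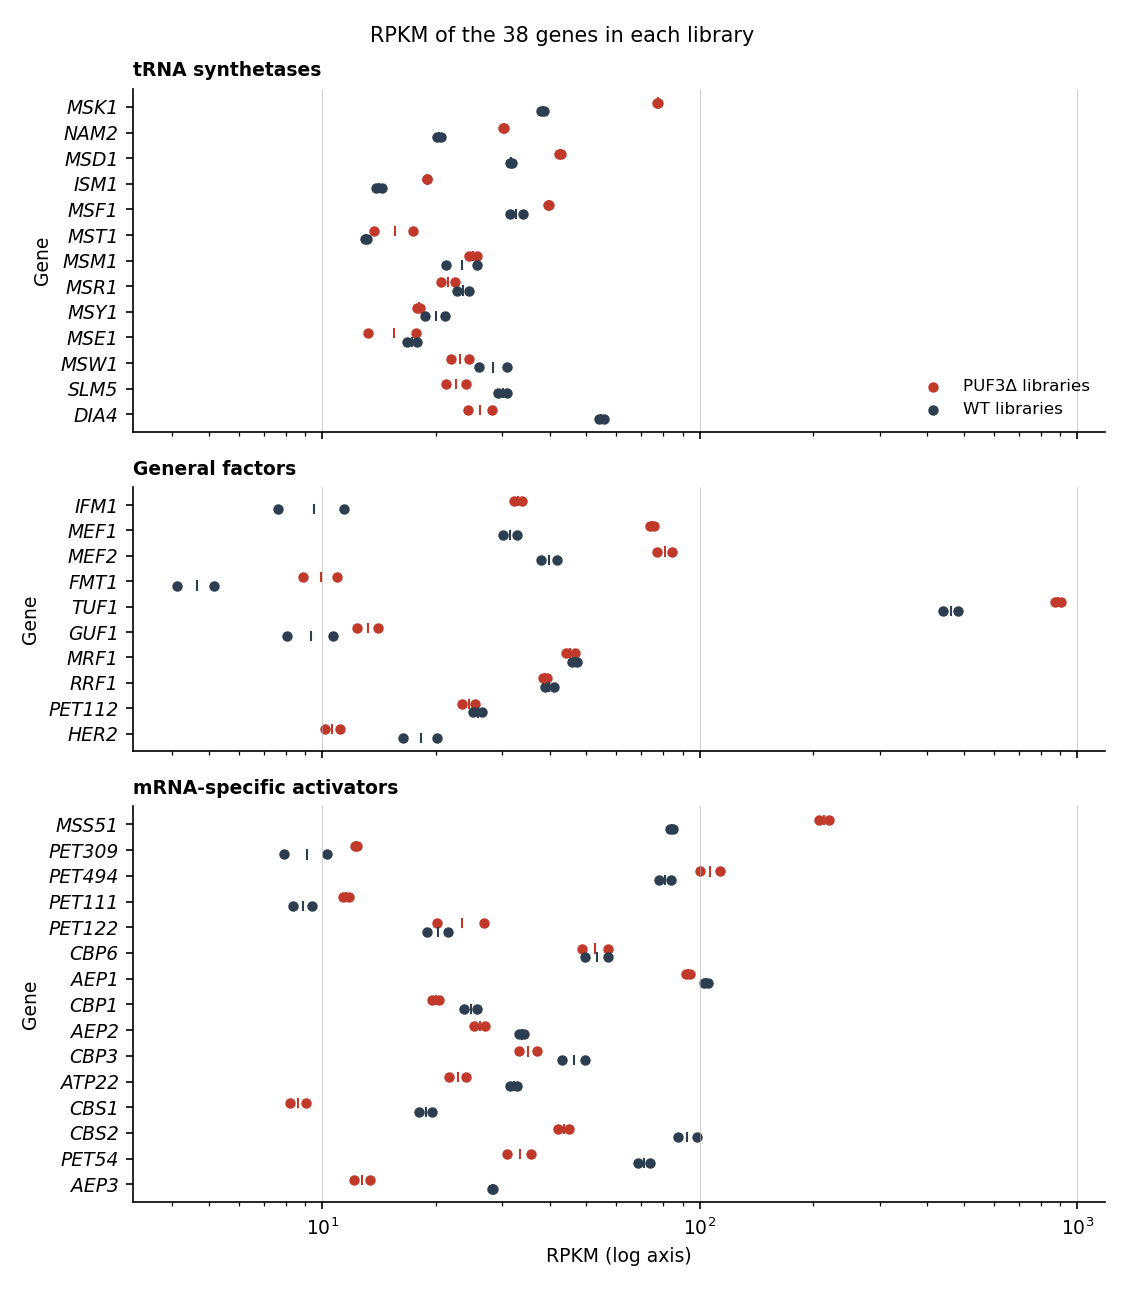
RPKM of the 38 genes in each library (x axis, log scale), by role and ordered by log2 fold change; red points are the *PUF3Δ* libraries and dark points the WT libraries, 2 each, with a tick at the mean. TUF1 stands alone at the right of the general factors, between 441.2 and 902.9, and the pairs of points are separate at the top and at the bottom of each panel.

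Among the 13 synthetases, 5 (38.5%) were higher and 1 (7.69%) lower in *PUF3Δ* under both scalings, where 18.9% and 33.2% of all genes were. All 13 carry the element. Their median log2 fold change was 0.10 as deposited and 0.47 after scaling. MSK1 and DIA4 stood at the ends of the range, at 0.99 and -1.04. The synthetases of leucine (NAM2), aspartate (MSD1), isoleucine (ISM1) and phenylalanine (MSF1) rose by less than MSK1.

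MSK1 (YNL073W, chromosome XIV, 488386 to 490116), the gene of the mitochondrial lysyl-tRNA synthetase, had 77.1 and 77.7 RPKM in *PUF3Δ*, against 38.70 and 37.96 in WT (log2 fold change 0.99, standard error 0.09, adjusted p = 6.0e-05 in limma). The replicates of each strain lay close together and the strains were a doubling apart. NAM2, whose product charges leucine tRNA and also takes part in splicing of mitochondrial introns, had 30.3 and 30.2 RPKM in *PUF3Δ*, against 20.2 and 20.6 in WT (log2 fold change 0.55, standard error 0.10, adjusted p = 0.0024 in limma). MSD1 had 42.3 and 42.8 RPKM in *PUF3Δ*, against 31.8 and 31.5 in WT (log2 fold change 0.42, standard error 0.09, adjusted p = 0.0053 in limma).

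ISM1, the longest of the 38 genes, had 18.9 and 18.9 RPKM in *PUF3Δ*, against 13.9 and 14.4 in WT (log2 fold change 0.40, standard error 0.12, adjusted p = 0.019 in limma), and its call was lost after a correction for gene length (0.28, adjusted p = 0.081) and without either of the *PUF3Δ* replicates. MSF1 had a value of 0.28 on the log2 scale (standard error 0.10, adjusted p = 0.036 in limma), which lost its call without WT replicate 1, without either of the *PUF3Δ* replicates and with the replicate number as a block (adjusted p up to 0.16 over the alternatives). These calls are the least stable of the higher synthetases.

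DIA4 (YHR011W), annotated as a putative mitochondrial seryl-tRNA synthetase, was the exception. It had 24.3 and 28.1 RPKM in *PUF3Δ*, against 53.9 and 55.7 in WT, a fold change of 0.478 between the means (log2 fold change -1.04, standard error 0.11, adjusted p = 1.3e-04 in limma). After median-of-ratios scaling the value was -0.66 (adjusted p = 0.0014). SLM5, for asparagine, had -0.40 (standard error 0.11, adjusted p = 0.015 in limma) as deposited and -0.02 after scaling, where it did not pass. The others, MST1, MSM1, MSR1, MSY1, MSE1 and MSW1, did not pass as deposited, with log2 fold changes between -0.28 and 0.23, and MST1 and MSM1 passed as higher after scaling.

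For 13 amino acids the cytosol uses an enzyme of another gene, which gives a measure within a library: the log2 ratio of the mitochondrial to the cytosolic synthetase, on RPKM + 1. Phenylalanine has a cytosolic enzyme of FRS1 and FRS2, so 14 pairs were compared. The ratio was higher in both *PUF3Δ* libraries than in both WT libraries for 9 pairs and lower in both for 4. The pairs with FRS1 and FRS2, which share MSF1, are both among the 9. No share over other pairs of genes was computed, so these counts have no background beside them. Among single genes as deposited, 24.9% of all genes had no overlap as higher and 62.6% as lower. With 2 against 2 libraries the exact two-sided permutation test cannot give a p below 0.33, which 13 pairs reached (0.359 after Benjamini-Hochberg adjustment over the 14 pairs), so no pair can pass a threshold of 0.05 by this test. The median difference over the pairs was 0.24.

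The pairs of serine and methionine were the extremes. DIA4 over SES1 had log2 ratios of -3.58 and -3.55 in *PUF3Δ*, against -1.86 and -2.01 in WT, a difference of -1.63 that ranged from -1.71 to -1.56 when a library was left out. Both genes of this pair moved, DIA4 down and SES1 up (log2 fold change 0.59, standard error 0.10, adjusted p = 0.0014 in limma). MSM1 over MES1 had -0.89 and -0.86 in *PUF3Δ*, against -1.88 and -1.97 in WT, a difference of 1.05. There MSM1 did not pass the test as deposited and its cytosolic counterpart fell by 0.95 on the log2 scale (standard error 0.10, adjusted p = 1.1e-04 in limma).

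The tryptophan pair was of the same kind, with MSW1 over WRS1 at -1.41 and -1.30 in *PUF3Δ*, against -2.02 and -2.15 in WT, and WRS1 fell by 1.00 on the log2 scale (standard error 0.09, adjusted p = 5.6e-05 in limma). In the lysine pair MSK1 passed the test as deposited and KRS1 did not. MSK1 over KRS1 had -2.29 and -2.38 in *PUF3Δ*, against -3.16 and -3.12 in WT. KRS1 had a value of 0.19 on the log2 scale as deposited (standard error 0.08, adjusted p = 0.058 in limma). After median-of-ratios scaling KRS1 passed as higher, at 0.58 (adjusted p = 6.2e-04 in limma). Of the 14 cytosolic genes, 3 were higher (21.4%, against 18.9% of all genes) and 2 lower (14.3%, against 33.2%) under both scalings. After median-of-ratios scaling alone 10 were higher (71.4%, against 33.9% of all genes), and 8 after the correction for length (57.1%, against 30.1%). The shares of the 13 mitochondrial synthetases in these settings were 53.8% and 38.5%, and those of the 38 genes 60.5% and 44.7%. None of these was larger than the share of the cytosolic genes. TGTANATA was in the window of 1 of the 14 cytosolic genes (7.14%).

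**Figure D4:**
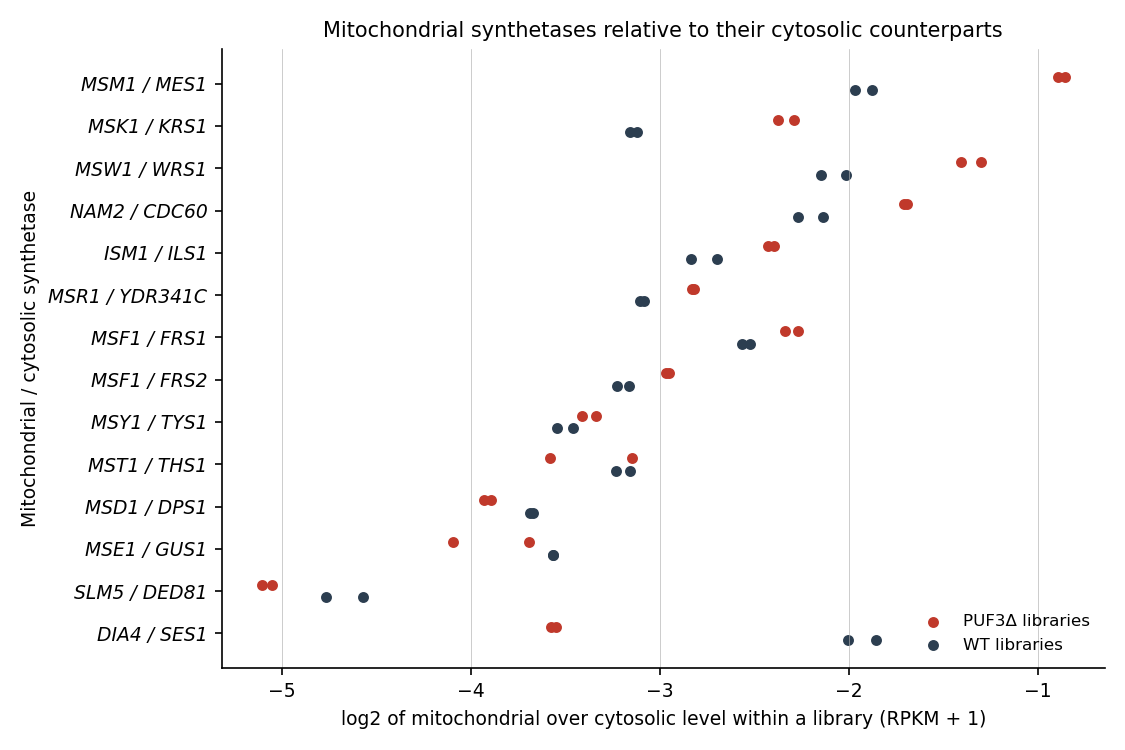
Log2 ratio of the mitochondrial to the cytosolic synthetase gene for the same amino acid (x axis, RPKM + 1), for 14 pairs in each library; red points are *PUF3Δ* and dark points WT. The *PUF3Δ* points lie to the right of the WT points in 9 pairs and to the left in 4, with the largest gap, -1.63, in DIA4 over SES1. No background over other pairs of genes was computed.

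The activators, which bind the untranslated leaders of mitochondrial mRNAs or attend to the newly made chains, changed in both directions. Under both scalings 2 of the 15 (13.3%) were higher and 4 (26.7%) lower in *PUF3Δ*, where 18.9% and 33.2% of all genes were. Neither of these shares stood above the background. After median-of-ratios scaling alone 7 were higher (46.7%, against 33.9% of all genes) and 4 lower (26.7%, against 33.2%). The median log2 fold change of the 15 was -0.29 as deposited, against -0.39 over all genes. Those higher under both scalings were MSS51, for COX1, and PET494, for COX3. The lower ones were PET54, for COX3, CBS1 and CBS2, for COB, and AEP3, for the mRNA of ATP6 and ATP8. These 4 had log2 fold changes between -1.09 and -1.04 as deposited, and after the correction for gene length they spread from -0.89 in AEP3 to -0.46 in CBS1.

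MSS51 (YLR203C, chromosome XII, 550650 to 551960) encodes a protein that both starts translation of COX1 and binds the new Cox1 chain during assembly of cytochrome oxidase. It had 207.4 and 220.1 RPKM in *PUF3Δ*, against 83.4 and 84.9 in WT, a fold change of 2.54 between the means (log2 fold change 1.33, standard error 0.08, adjusted p = 1.9e-05 in limma). PET309, the other COX1 activator, had 12.3 and 12.2 RPKM in *PUF3Δ*, against 7.91 and 10.3 in WT (log2 fold change 0.41, standard error 0.17, adjusted p = 0.061 in limma). The COX2 activator gene PET111 had a value of 0.35 on the log2 scale (standard error 0.15, adjusted p = 0.067 in limma). Both passed as higher after median-of-ratios scaling, at 0.76 (adjusted p = 0.0062) and 0.70 (adjusted p = 0.0050).

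COX3 needs Pet494p, Pet54p and Pet122p, which act together on its mRNA, and their genes did not move together. PET494 had 100.2 and 112.9 RPKM in *PUF3Δ*, against 78.0 and 84.0 in WT (log2 fold change 0.39, standard error 0.10, adjusted p = 0.0081 in limma), and its call was lost only without *PUF3Δ* replicate 2, where the adjusted p was 0.085. PET54 had 30.9 and 35.7 RPKM in *PUF3Δ*, against 73.9 and 68.5 in WT (log2 fold change -1.08, standard error 0.11, adjusted p = 1.1e-04 in limma). The genes of the 2 partners were close to equal in WT and far apart in *PUF3Δ*: the ratio of PET494 to PET54 was 3.24 and 3.16 in *PUF3Δ*, against 1.06 and 1.23 in WT. PET122 had 26.9 and 20.1 RPKM in *PUF3Δ*, against 19.0 and 21.6 in WT, which overlap (log2 fold change 0.19, standard error 0.16, adjusted p = 0.31 in limma). It passed as higher after median-of-ratios scaling, at 0.56 (adjusted p = 0.022 in limma), and after the correction for gene length, at 0.77 (adjusted p = 0.0040 in limma). PET122 shares 11 nt with a listed gene on the opposite strand.

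Of the 5 COB activators, 4 were lower in *PUF3Δ* as deposited, where 54.2% of all genes were, and 2, CBS1 and CBS2, under both scalings, where 33.2% were. No excess over the background was tested with 5 genes. CBS2 had 42.0 and 45.1 RPKM in *PUF3Δ*, against 98.1 and 87.3 in WT (log2 fold change -1.07, standard error 0.10, adjusted p = 7.6e-05 in limma). CBS1 had 9.07 and 8.20 RPKM in *PUF3Δ*, against 18.1 and 19.5 in WT, from 42 and 46 reads and from 92 and 111 reads (log2 fold change -1.04, standard error 0.14, adjusted p = 4.2e-04 in limma). CBS1 and CBS2, both needed to translate COB, thus fell by nearly the same factor, and their ratio of 4.64 and 5.50 in *PUF3Δ* overlapped that of 5.43 and 4.47 in WT. CBS1 shares 311 nt with a listed gene on the opposite strand, and without the strand of counting their reads cannot be told apart.

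CBP3 and CBP6 encode partners that sit at the exit of the mitochondrial ribosome and take up new cytochrome b. CBP3 had a value of -0.39 on the log2 scale (standard error 0.11, adjusted p = 0.016 in limma) and CBP6 one of -0.01 (standard error 0.12, adjusted p = 0.93 in limma). The ratio of CBP6 to CBP3 was 1.47 and 1.54 in *PUF3Δ*, against 1.15 and 1.15 in WT. CBP1, which protects the COB mRNA, had -0.29 (standard error 0.11, adjusted p = 0.047 in limma). Neither CBP1 nor CBP3 kept its call after scaling.

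Of the activators for ATP synthase subunits, AEP3 had 12.1 and 13.4 RPKM in *PUF3Δ*, against 28.4 and 28.2 in WT (log2 fold change -1.09, standard error 0.12, adjusted p = 1.5e-04 in limma), the largest decrease of the 38 genes. ATP22, the ATP6 activator gene, had -0.48 (standard error 0.11, adjusted p = 0.0061 in limma) and AEP2, for OLI1, had -0.36 (standard error 0.10, adjusted p = 0.016 in limma), and both were near 0 after scaling, at -0.10 and 0.02. AEP1, also for OLI1, had -0.16 (standard error 0.08, adjusted p = 0.11 in limma) as deposited and 0.23 (adjusted p = 0.034) after scaling. The listed model of ATP22 has 1836 bases where R64 has 2055, and its window was taken from R64. AEP3 was therefore the ATP synthase activator gene with a call that held under both scalings.

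Both the genes with the element and those without it included higher and lower ones. The 21 genes with the longer form had a median log2 fold change of -0.01, with 7 higher and 2 lower under both scalings. The 11 with the short form alone had a median of -0.16, with 4 higher and 1 lower, and the 6 without had a median of -0.14, with 2 higher and 2 lower. Of the 32 genes with either form, 34.4% were higher and 9.38% lower under both scalings, against 33.3% and 33.3% of the 6 without. Over all genes tested these shares were 18.9% and 33.2%. No test was made between classes of these sizes.

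**Figure D5:**
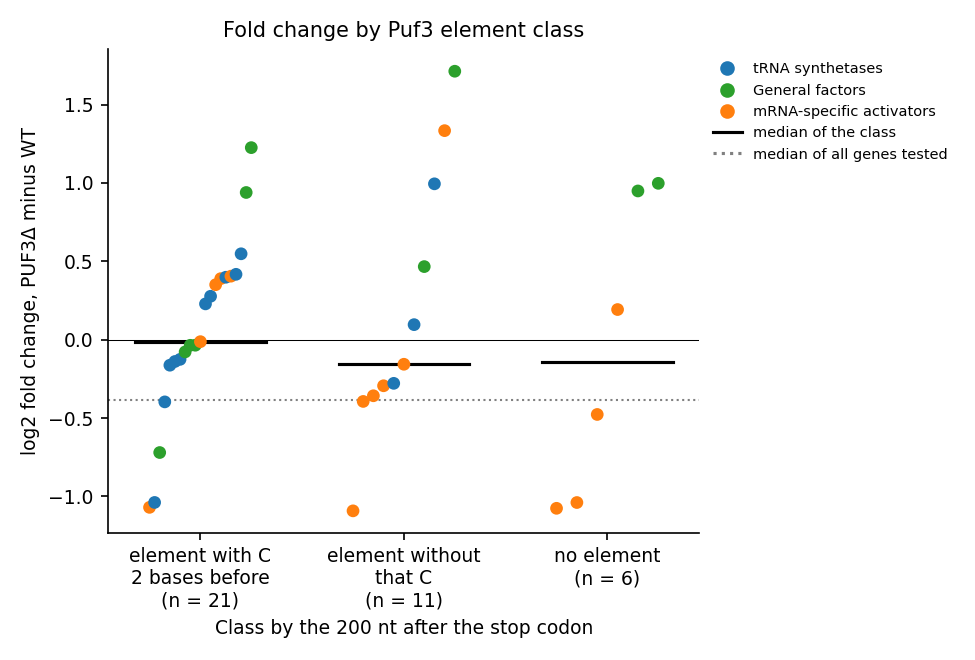
Log2 fold change of the 38 genes, *PUF3Δ* minus WT (y axis), by class of the 200 nt after the stop codon; points are genes coloured by role, short bars are class medians (-0.01, -0.16 and -0.14), and the dotted line is the median of all genes tested (-0.39). Genes above and below that line stand in every class.

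The study measured the action of Puf3p on a gene as the percentage by which its level in WT lies below that in *PUF3Δ*. By that measure 18 of the 38 genes were lower in WT (47.4%), against 30.7% of 5853 genes, with the highest value, 71.1%, in IFM1, followed by 60.6% in MSS51, 58.0% in MEF1 and 53.1% in FMT1. Across the 38 genes the percentage had a Spearman's rho of 0.319 with the mean RPKM in *PUF3Δ* and 0.0642 with the mean RPKM over all 4 libraries. Across all genes these values were 0.357 and 0.153. The *PUF3Δ* level enters both axes of the first relation, and genes of the same libraries are not independent, so the values are descriptions.

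The coefficient of deviation (CD, the SD over genes divided by their mean) over the 38 genes was 2.36 and 2.34 in *PUF3Δ*, against 1.65 and 1.55 in WT, a ratio of 1.47 between the means (exact two-sided permutation test over the 4 libraries, p = 0.33, the smallest possible). The most abundant genes set most of it. Without TUF1 the CD was 0.990 and 1.00 in *PUF3Δ*, against 0.715 and 0.702 in WT, and without TUF1 and MSS51, which were picked after the values were seen, it was 0.725 and 0.739 in *PUF3Δ*, against 0.713 and 0.695 in WT, a ratio of 1.04. These values are on linear RPKM, whereas the methods of the study describe the CD of target genes after log transformation. On log2(RPKM + 1) with all 38 genes the ratio was 1.08. On linear RPKM the ratio by role was 1.69 for the activators, 1.37 for the synthetases and 1.10 for the general factors.

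Gene length moved with the fold change in these libraries. Spearman's rho between length and log2 fold change was 0.393 across the 38 genes and 0.348 across all genes, and the 38 genes are longer, with a median of 1519 bases against 1186. After a loess correction for length in each library, 17 of the 38 were higher, where 30.1% of all genes were, and 5 were lower, where 34.3% were, with a median of 0.32 against -0.05 over all genes. All 5 genes that were firmly lower kept their call, as did 12 of the 13 firmly higher ones, ISM1 being the exception. How many of all firmly called genes kept theirs is not given here, so these counts have no background.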

How the data were processed

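The authors extracted total RNA by Trizol, selected poly(A) RNA with oligo-dT beads, sequenced it, and used SOAP2 to place the reads on the yeast genome. The deposited values are RPKM, made by the authors per gene and library (2 *PUF3Δ*, 2 WT). How reads with more than 1 hit were handled, whether strand was used and which SOAP2 version was run are not given in the sources used here. RPKM times gene length in kilobases summed to 1000000 in each library, and 100% of the values equalled a whole number of reads to within 6e-05 RPKM, which gave the reads on listed genes: 6703910 and 8119223 in *PUF3Δ*, 7370059 and 8228693 in WT. The replicates differed by more than counting error (chi-square per degree of freedom 4.68 in *PUF3Δ* and 11.9 in WT).

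The comparison of *PUF3Δ* with WT used limma (version 3.58.1, R version 4.3.3), with linear fits to log2(RPKM + 1) and moderated variances that follow the mean level. It covered the 5860 genes whose RPKM averaged 1 or more, had no block term, and took Benjamini-Hochberg adjustment over all of them with a threshold of 0.05. The pseudocount understates the change of low genes. The fit was also run on simulated counts, in which the typical gene did not change. That setting differs from these libraries, so no support is drawn from it. Of the listed identifiers, 5984 of 6673 matched R64 by name, and 16.6% of these had the same coordinates (97.1% the same length), although the submitters' processing notes name R64, so positions and sequences come from the RefSeq copy of R64 alone. Ratios, CD and exact tests used Python 3.11.15 with scipy 1.17.1. The alternatives were median-of-ratios and quantile scaling, a pseudocount of 0.1, no filter or a mean RPKM of at least 5, a loess on gene length, limma-voom on the recovered reads, a replicate block and leaving out each library.

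All 38 genes are named. RPKM per library is given for TUF1 and, in each role, for up to 4 of the largest increases and 4 of the largest decreases called under both scalings without overlap, and those of GUF1, PET309 and PET122 were added after their values were seen. The genes, lists and ratios were chosen with earlier results of these data known. Genes of mitochondrial DNA were not analysed here.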

Additional observations from a re-analysis of the deposited data

How the results depend on the processing

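Scaling decided the direction of small changes. After median-of-ratios scaling, quantile normalization and the loess on length, the genes called over all genes were 1984, 1869 and 1763 higher and 1945, 2003 and 2009 lower in *PUF3Δ* (as deposited 1108 and 3175). The median of all genes became -0.0111, -0.0396 and -0.0495, and it was -0.31 without the filter and between -0.40 and -0.37 when a library was left out. Of the 38 genes, 23, 23 and 17 were then higher and 5, 5 and 5 lower, and their median became 0.36, 0.40 and 0.32. Leaving out 1 library gave 9 to 15 higher and 6 to 11 lower genes (6 without *PUF3Δ* replicate 1) and a median between -0.0478 and 0.0361.

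The values that changed sign, none of them firmly called, were as follows. Under median-of-ratios scaling they were 0.20 for MSE1, 0.25 for MSR1, 0.10 for MSW1, 0.23 for MSY1, 0.35 for MRF1, 0.34 for RRF1, 0.30 for PET112, 0.0781 for CBP1, 0.37 for CBP6, 0.23 for AEP1 and 0.0184 for AEP2. Under quantile normalization they were 0.26 for MSE1, 0.32 for MSR1, 0.16 for MSW1, 0.30 for MSY1, 0.04997 for SLM5, 0.39 for MRF1, 0.41 for RRF1, 0.36 for PET112, 0.15 for CBP1, 0.39 for CBP6, 0.0395 for CBP3, 0.17 for AEP1 and 0.11 for AEP2. Under the loess on length they were 0.10 for MSE1, 0.0418 for MSR1, 0.16 for MSW1, 0.18 for MSY1, 0.37 for MRF1, 0.55 for RRF1, 0.18 for PET112, 0.60 for CBP6, 0.10 for CBP3, 0.13 for AEP1 and, for MST1 over THS1, 0.0929. CBP6 was 3.08e-05 with limma-voom. When a library was left out, MSE1 ranged from -0.36 to 0.0320, MSM1 from -0.0331 to 0.22, MRF1 from -0.0745 to 0.0035, RRF1 from -0.0724 to 4.96e-04, PET122 from -0.0086 to 0.39, CBP6 from -0.12 to 0.10, and MST1 over THS1 from -0.39 to 0.0475. Leaving out a library leaves 1 strain with a lone library, assumed to vary like the other strain. Leaving out a library for the synthetase pairs and the CD, and the CD without TUF1 and MSS51, were chosen after seeing the data.

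The replicate numbers did not pair the libraries (correlation of their deviations -0.01). The replicate block gave 12 higher and 10 lower of the 38 genes, and 1067 higher and 3117 lower of the 5860 genes tested. The pseudocount, the filters and limma-voom moved no count of the 38 genes by over 1.5 times. With a C required 2 bases before TGTANATA, 21 of the 38 genes and 253 of all genes had the element. With 2 libraries a strain, no exact test over libraries can go below 0.33, and genes with under 100 reads a library (CBS1, FMT1, HER2) are limited by counting error.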

Other observations

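Genes that work beside these factors changed in both directions. The 29 other genes of mitochondrial translation and RNA that were compared comprised 11 that were higher in *PUF3Δ* and 5 that were lower under both scalings of the libraries, where 18.9% and 33.2% of all genes were, and 24 of the 29 had TGTANATA in the 200 nt after the stop codon. MAM33, whose product is a matrix protein linked to COX1 translation, had the largest increase, with 430.4 and 442.0 RPKM in *PUF3Δ*, against 164.3 and 154.7 in WT (log2 fold change 1.45, standard error 0.08, adjusted p = 1.4e-05 in limma). MTF2, whose product takes part in processing and translation of mitochondrial RNA, had the largest decrease, with 11.9 and 13.1 RPKM in *PUF3Δ*, against 28.6 and 38.1 in WT (log2 fold change -1.33, standard error 0.16, adjusted p = 2.4e-04 in limma). Both have the element.

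The synthetases of a single gene that serves the cytosol and the mitochondrion, HTS1, VAS1, GRS1, ALA1 and CRS1, included 4 that were higher in *PUF3Δ* under both scalings, where 18.9% of all genes were, and none that was lower. The largest value was that of VAS1, for valine, with 137.7 and 150.5 RPKM in *PUF3Δ*, against 83.9 and 84.4 in WT (log2 fold change 0.77, standard error 0.08, adjusted p = 1.7e-04 in limma), and the smallest that of GRS1, for glycine, at 0.11 (standard error 0.08, adjusted p = 0.25 in limma). Of the 5, 2 had TGTANATA in the window and none had it with a C 2 bases before. Among the 80 mitochondrial ribosomal protein genes, all with TGTANATA, 26 (32.5%) were higher and 4 (5%) lower under both scalings, where 18.9% and 33.2% of all genes were, with log2 fold changes from 1.14 in RSM19 to -1.24 in MRP20. Their median was -0.01 as deposited, against -0.02 for the 38 genes, and 0.54 after the correction for gene length, against 0.32 for the 38 genes. After that correction 63 of the 80 were higher (78.8%), where 30.1% of all genes were.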
